A study of Mus musculus with 6 samples.

Results

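The DNA replication machinery was followed through 44 genes, chosen by name from the 23337 genes of the count table, that load, open, copy and supply the replicating genome. The members were the 6 subunits of the origin recognition complex, the loaders Cdc6 and Cdt1, the helicase genes Mcm2 to Mcm7, and 6 genes of helicase activation. They also held the DNA polymerases with primase, the sliding clamp and its loader, the single-strand binding protein RPA, the enzymes that finish Okazaki fragments, and 4 genes of deoxynucleotide supply. All 44 were in the table, and all 44 passed the filter on low counts in the fit of all libraries. The data were read counts per gene from polyA-selected RNA of sorted mouse leukaemia initiating cells (LICs), the cells of a leukaemia that can start it again. One group came from adult leukaemia (3 libraries, replicates 1, 2 and 4) and the other from neonatal leukaemia (3 libraries, replicates 4, 7 and 8). Both groups are labelled as haematopoietic stem and progenitor cells (HSPCs). The labels used here give no leukaemia driver, sorting gate, sex or exact age. They also do not state that the replicates are different animals. The p-values therefore measure only the spread between these libraries, which may be technical.

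Replication begins in G1 phase, when the origin recognition complex, Cdc6 and Cdt1 load pairs of MCM helicase rings onto DNA. In S phase kinases convert each ring into an active helicase by adding Cdc45 and the GINS complex. Polymerase alpha with primase then lays primers. Polymerases epsilon and delta copy the leading and lagging strands with the PCNA clamp, and FEN1 and DNA ligase I join the lagging strand. Many of these genes are transcribed under E2F factors as cells enter S phase, so their RNA is widely used as a readout of proliferation in bone marrow progenitors and leukaemia.

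The libraries held 60113466 to 66132051 counts, except neonatal replicate 4 with 3932833. Levels are given as CPM, the count scaled to a common library size after TMM normalization. A count of 0 allows up to 3 counts, which is 0.897 CPM in neonatal replicate 4 and at most 0.0503 CPM elsewhere, for counting error alone. Depth did not hide any member: the lowest count among the 44 genes was 54, for Pole in neonatal replicate 4 (exact Poisson 95% interval 40.6 to 70.5), and at least 1014 in each of the other libraries. Of the 8 stem and progenitor markers none was at 0 in all libraries, and they summed to 1701 to 2242 CPM in the adult libraries and 1824 to 4486 CPM in the neonatal ones. Myb, Spi1 and Ptprc were at 144 CPM or more in every library, whereas Flt3 was at 4.58 to 19.4 CPM and Gata2 at 1.01 to 16.5 CPM in the adult libraries, so that label rests on fewer of its markers there. Of the 8 markers 6 had positive and 2 negative log2 fold changes, neonatal minus adult, from -0.53 to 6.07. On 6 libraries edgeR called 0, and 3 were higher at an unadjusted p below 0.05, which 11.9% of all genes passed in either direction. Without neonatal replicate 4 edgeR called 2 of the 8 higher, beside 3.72% of all genes. The part of this marker difference in the comparisons was not tested. The B and T cell markers Ms4a1, Pax5, Cd3e, Cd3g and Cd4 and the erythroid markers Hba-a1 and Hbb-b1 were at 0 counts in every library. Others on those lists were not: the B list summed to 28.5 to 69.4 CPM in the adult and 72.0 to 147 CPM in the neonatal libraries, nearly all from Cd79b. The T and NK list summed to 44.6 to 113 CPM and 36.5 to 270.2 CPM, nearly all from Nkg7, which was highest in neonatal replicate 4 at 269.9 CPM. The erythroid list summed to 2.84 to 4.10 CPM and 1.25 to 2.69 CPM, mostly from Klf1 and Alas2. Markers of maturing neutrophils, 10 of 10 present, summed to 1846 to 14887 CPM in the adult libraries and 79.6 to 292 CPM in the neonatal ones, and the part of these markers in the comparisons was not tested.

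No replication gene passed the test between adult and neonatal LICs, and the groups did not overlap for 1 of the 44 genes, Rfc1, which was lower in neonatal libraries. Of all genes tested 12.0% were lower and 7.67% higher without overlap. In edgeR's quasi-likelihood fit of the 6 libraries, 0 of 44 genes were called higher and 0 lower at an adjusted p of 0.05, beside 0.0527% of the 13272 genes tested. Without adjustment 0 of 44 had a p below 0.05 (the smallest was 0.0642, for Rfc1), whereas 11.9% of all genes did. On the same 6 libraries 0 members were called by DESeq2, which called 5.68% of all genes, by edgeR's likelihood ratio test, which called 4.46%, or by limma voom, which called 0.0527%. The members' log2 fold changes, neonatal minus adult, had a median of 0.13 and ran from -0.61 to 0.82, and the median over all genes tested was 0.05. Of the 44, 29 were positive and 15 negative. For 11 members the 95% interval of the log2 fold change lay wholly between -1 and 1, which is 25% of the members and compares with 13.3% of all genes. For the remaining members the interval reached a difference of 2-fold or more in at least 1 direction. In these bulk libraries fewer cells of a type and less RNA per cell cannot be told apart.

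**Figure D1:**
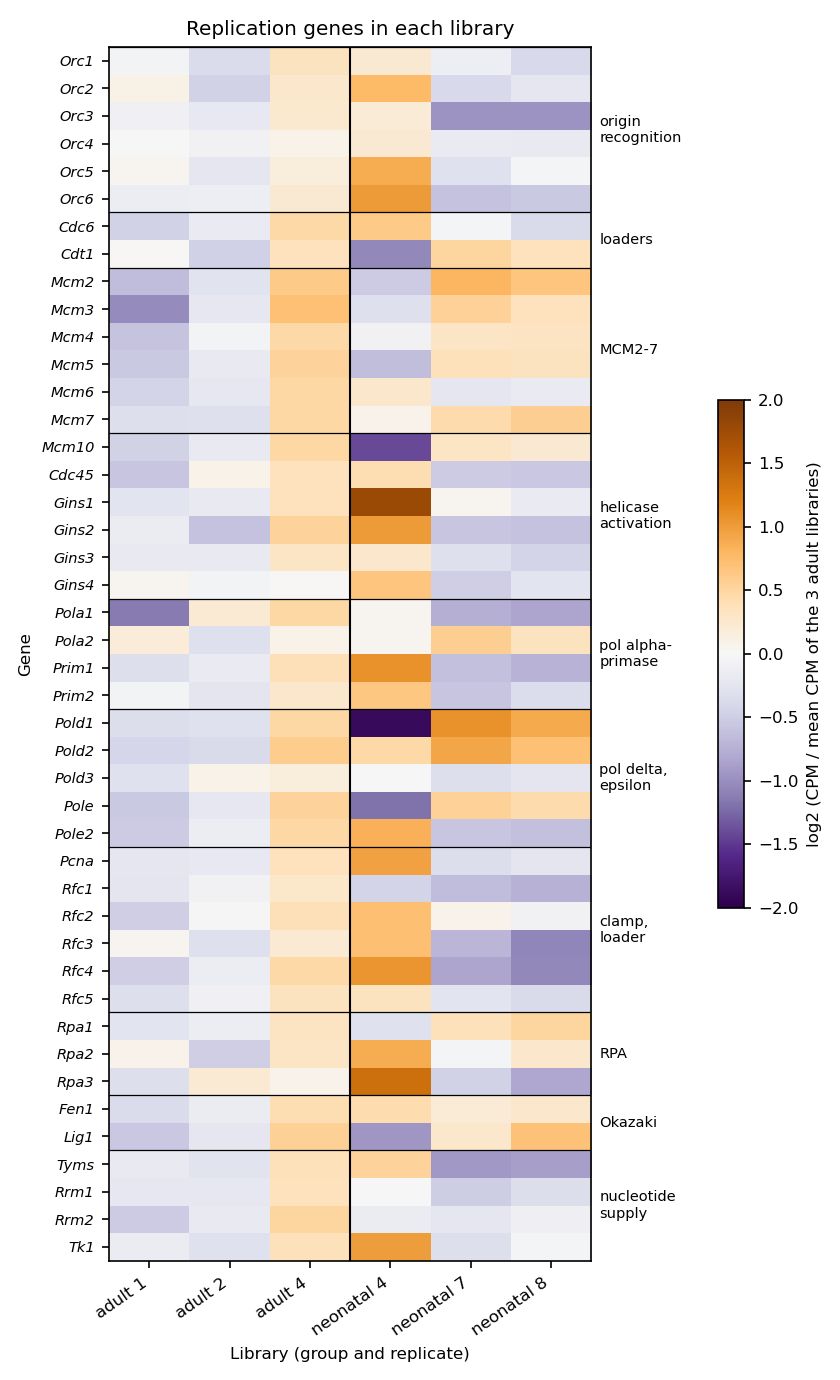
Heat map of the 44 replication genes (rows, grouped by role) in the 6 libraries (columns). Colour gives log2 of the CPM over the mean CPM of the 3 adult libraries, so orange is above and purple below the adult mean. Adult replicate 4 is orange in nearly every row, and neonatal replicate 4 differs from neonatal replicates 7 and 8 in both directions.

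The members varied among libraries of the same group. Adult replicate 4 was the highest adult library for 41 of 44 members, whereas it was the highest for 34.7% of all genes tested. The 3 exceptions were Gins4, Pola2 and Rpa3. It was the lowest adult library for 0 of 44 members, against 34.2% of all genes. Its members stood at a median of 1.55 times their level in adult replicate 1, with Mcm3 at 3.32 times, Pola1 at 3.03 times and Mcm2 at 2.42 times, and 10 members were over 2 times higher. The median of the same ratio over 8715 tested genes with a mean of at least 10 CPM was 1.02, and 5.5% of those genes were over 2 times higher. Summed over the members, the adult libraries held 5620, 6213 and 9376 CPM in replicates 1, 2 and 4. The 16 mitosis genes listed for reference, Mki67, Top2a and Ccnb1 among them, summed to 3818, 3735 and 3720 CPM in the same 3 libraries. The higher level in adult replicate 4 was thus present in the replication sum and absent from the mitosis sum. It was not particular to the members. Adult replicate 4 also held the highest adult sum for the lists of other replication factors, replication-coupled chromatin and other nucleotide supply. The same held for the E2F and RB family, S-phase kinases and checkpoint genes. For example, the other replication factors summed to 2119, 2170 and 2586 CPM in adult replicates 1, 2 and 4. Markers of maturing neutrophils, cells that have largely left the cycle, summed to 5974, 14887 and 1846 CPM in adult replicates 1, 2 and 4, and their part in the order of the adult libraries was not tested.

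Neonatal replicates 7 and 8 were close to each other, and neonatal replicate 4 was not close to either. The ratio of replicate 7 to replicate 8 ran from 0.740 (Lig1) to 1.28 (Rfc3) over the 44 members. Neonatal replicate 4 stood at 0.136 (Pold1) to 4.01 times (Rpa3) the mean of the other 2 neonatal libraries, with 16 members over 2 times higher and 6 under 0.5 times. Of 8714 tested genes with a mean of at least 10 CPM, 17.9% were over 2 times higher, against 36.4% of the members. The median of this ratio was 0.920 over those genes and 1.56 over the members. Neonatal replicate 4 was the highest neonatal library for 30 of 44 members, and for 38.9% of all genes. It is also the library with far fewer counts. When all libraries were thinned to its depth, 28 members were positive and 16 negative and edgeR called 0, beside 0.0566% of all genes. Thinning leaves the counts of neonatal replicate 4 as they were, so it cannot show what depth did to them.

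Orc3, an origin recognition gene, was the single member called by edgeR's quasi-likelihood test, and only when neonatal replicate 4 was left out. Values are given for adult replicates 1, 2 and 4 and then for neonatal replicates 4, 7 and 8. Orc3 (chromosome 4, 34566781 to 34614942, mm10, minus strand), a core subunit of the complex that marks origins, was at 184, 170 and 229 CPM in the adult libraries and at 224, 99.6 and 100.2 CPM in the neonatal ones. Neonatal replicates 7 and 8 lay below all adult libraries and neonatal replicate 4 lay among them. The log2 fold change was -0.47 ± 0.39 (SE) on 6 libraries (edgeR adjusted p = 0.719) and -0.95 ± 0.20 without neonatal replicate 4 (edgeR adjusted p = 0.0474, range over 23 alternatives 0.00031 to 0.983). In that fit of 5 libraries 1 of 44 members was lower and 0 higher. The 1 lower member is 2.27% of the members, and 2.25% of the 13856 genes tested were lower. A further 3.72% of all genes were higher, 5.98% in either direction. With the trends of each library along exon length and GC content removed, the 5-library value for Orc3 was -0.26 (edgeR adjusted p = 0.593), and 0.0513% of all genes were called. Of the exon bases of Orc3, 128 overlap Akirin2 on the opposite strand, and reads of the pair cannot be told apart without strand. The same holds for 6 other members: Orc4 shares 511 bases with Acvr2a, Rfc4 160 with Eif4a2, Gins2 118 with Gse1, Lig1 116 with 6330408A02Rik, Tk1 88 with Afmid and Pold2 46 with Aebp1.

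The other 5 origin recognition genes had log2 fold changes of -0.08 to 0.27 on 6 libraries, none called. Orc5, also a core subunit, was at 71.6, 59.4 and 78.3 CPM in the adult libraries and at 129, 57.1 and 67.7 CPM in the neonatal ones (log2 fold change 0.27, 95% interval -0.59 to 1.14). The groups overlapped, with neonatal replicate 4 above all others. Orc1, an ATPase subunit, averaged 19.7 ± 4.82 CPM over the adult and 18.7 ± 4.02 CPM over the neonatal libraries (SD, n = 3 each). Without neonatal replicate 4 all 6 origin recognition genes had negative log2 fold changes, -0.95 to -0.15, and on 6 libraries 3 were positive and 3 negative. The shared sign did not hold once the length and GC trends were removed without neonatal replicate 4. Orc4 and Orc5 were then each at 0.53 (edgeR adjusted p = 0.228 and 0.271). Orc1, Orc2, Orc3 and Orc6 stayed negative, at -0.17, -0.09, -0.26 and -0.10. Per kilobase of exon Orc6 was the highest and Orc1 the lowest of the 6 in every library, 6.50 to 15.7 times apart.

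The loaders also overlapped between the groups. Cdc6, the ATPase that recruits the helicase, was at 45.3, 56.2 and 86.7 CPM in the adult libraries and at 96.5, 61.1 and 48.0 CPM in the neonatal ones. Cdt1, which brings the MCM ring to Cdc6 and is kept in check by geminin, was at 75.9, 54.3 and 96.8 CPM in the adult libraries and at 36.8, 107.5 and 96.9 CPM in the neonatal ones. Their log2 fold changes were 0.12 and 0.09 (edgeR adjusted p = 0.942 and 0.964). In neonatal replicate 4 the pair went opposite ways, with Cdc6 at 1.77 times and Cdt1 at 0.360 times the mean of neonatal replicates 7 and 8.

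The helicase genes Mcm2 to Mcm7, whose products form the hexameric ring of the helicase, were each highest in replicate 4 among the adult libraries. Mcm2 (chromosome 6, 88883474 to 88898780) was at 135, 175 and 326 CPM in the adult libraries and at 147, 369 and 335 CPM in the neonatal ones. Mcm3 (chromosome 1, 20803014 to 20820213) was at 127, 222 and 420 CPM and at 208, 372 and 328 CPM. Adult replicate 4 lay just under neonatal replicates 7 and 8 for Mcm2 and above both for Mcm3, and neonatal replicate 4 lay between adult replicates 1 and 2 for both genes. Mcm4 was at 126, 181 and 259 CPM in the adult libraries and at 179, 233 and 235 CPM in the neonatal ones. Mcm5 (chromosome 8, 75109528 to 75128439) was at 201, 258 and 421 CPM and at 190.1, 377 and 371 CPM. Both groups overlapped for each of these genes. Mcm7 (chromosome 5, 138164589 to 138171862) was at 265, 267 and 458 CPM in the adult libraries and at 347, 450.2 and 490.2 CPM in the neonatal ones. Mcm6 (chromosome 1, 128331591 to 128359656) was at 579, 681 and 1099 CPM and at 944, 670.1 and 703 CPM. It was the 1 helicase gene for which neonatal replicate 4 stood above neonatal replicates 7 and 8.

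On 6 libraries 5 of the 6 helicase genes had a positive log2 fold change, none called, from -0.03 (Mcm6) to 0.42 (Mcm2), and with RLE scaling all 6 were positive. Without neonatal replicate 4 the range was -0.18 (Mcm6) to 0.74 (Mcm2, edgeR adjusted p = 0.228). Summed over the 6 genes, adult libraries held 1433, 1784 and 2983 CPM and neonatal libraries 2016, 2471 and 2462 CPM, so that adult replicate 4 exceeded every neonatal library. Mcm6 was the highest of the 6 per kilobase of exon in all libraries. It stood at 3.46, 3.20 and 3.01 times the mean of the other 5 genes in adult replicates 1, 2 and 4, at 4.44 times in neonatal replicate 4, and at 1.92 and 2.05 times in neonatal replicates 7 and 8. Neonatal replicates 7 and 8 lay below the adult libraries in this ratio and neonatal replicate 4 above them.

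**Figure D2:**
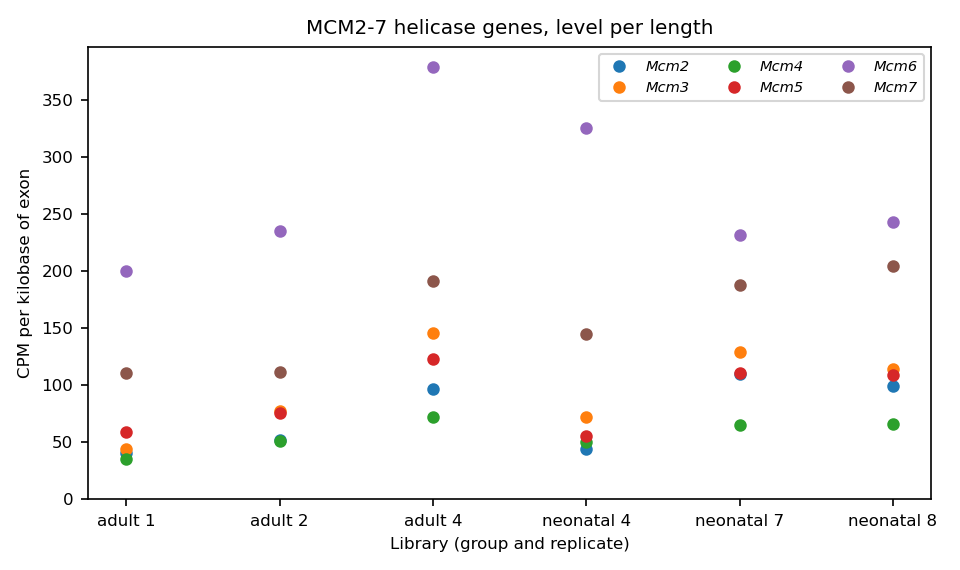
Levels of Mcm2 to Mcm7 as CPM per kilobase of exon (vertical axis) in each library (horizontal axis), 1 point per gene and library. Mcm6 is the highest point in all 6 libraries, between 199.5 and 379, and adult replicate 4 has the highest point of the 3 adult libraries for each gene.

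Promoter sequence was read from RefSeq windows (assembly GRCm38.p6) that run from 250 bases before to 50 after each annotated start, and 37 of the 44 members matched by symbol. The members not matched were Gins1, Gins2, Gins4, Mcm4, Pole, Prim2 and Rfc2. An E2F-type motif, taken as TTTCGCGC, TTTGGCGC, TTTCCCGC or TTTGCCGC on either strand, was found in windows of 15 of the 37 genes (40.5%). The same search found it for 4.68% of the 9373 tested genes with a window and for 2.6% of all 27025 genes in the table. The 15 genes came from several roles: Mcm3, Mcm5, Mcm6 and Mcm7, Orc1 and Orc3, Cdc6 and Cdt1, Gins3, Pola1, Pold1, Pold3 and Pole2, Rfc3 and Lig1. The box CCAAT was present for 62.2% of the members against 43.3% of tested genes, and GGGCGG for 75.7% against 66.8%. For TTCCCGCC, which can overlap the E2F-type letters, the shares were 18.9% and 4.78%, and for CACGTG 18.9% and 11.5%. TTTGAA was found for 13.5% of members and 14.3% of tested genes, and TTCGAA for 5.41% and 2.46%. A match describes letters in these windows and does not show binding.

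Stretches are shown only for members with an E2F-type match wholly before the annotated start. They are Mcm5, Mcm6 and Mcm7, the loader Cdc6, and Orc1 and Orc3, the latter being the gene called without neonatal replicate 4. Gins3, Pola1 and Rfc3 also had such a match and are not shown. Matches were not compared with levels. Mcm3 had matches only after its start, and no match was found for Mcm2. Each is written 5′ to 3′ on the gene's strand, with capitals marking the E2F-type matches on either strand.
Mcm5, chr8:75109326-75109397, plus strand: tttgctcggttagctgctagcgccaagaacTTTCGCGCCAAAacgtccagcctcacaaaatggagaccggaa
Mcm6, chr1:128359715-128359845, minus strand: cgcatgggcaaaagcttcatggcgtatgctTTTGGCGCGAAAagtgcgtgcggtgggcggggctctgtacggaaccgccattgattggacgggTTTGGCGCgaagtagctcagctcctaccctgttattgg
Mcm7, chr5:138172011-138172078, minus strand: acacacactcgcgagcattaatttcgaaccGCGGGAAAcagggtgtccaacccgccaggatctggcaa
Cdc6, chr11:98907983-98908050, plus strand: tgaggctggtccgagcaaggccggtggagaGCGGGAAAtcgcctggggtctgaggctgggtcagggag
Orc1, chr4:108579397-108579453, plus strand: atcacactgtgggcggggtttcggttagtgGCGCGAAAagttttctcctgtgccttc
Orc3, chr4:34614946-34615013, minus strand: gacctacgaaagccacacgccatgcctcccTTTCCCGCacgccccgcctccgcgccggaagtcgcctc
In Mcm5 and Mcm6 a pair of matches on opposite strands shares 4 bases, and Mcm6 has a further match nearer to its start. Mcm6 thus carries 3 of these matches and Mcm5 carries 2, and Orc1 and Orc3 carry 1 each.

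Helicase activation genes included the largest log2 fold change of any member. Gins1, a GINS subunit, was at 25.5, 27.0 and 39.0 CPM in the adult libraries and at 104, 31.7 and 27.2 CPM in the neonatal ones. Neonatal replicate 4 lay above all others and the rest overlapped. The log2 fold change was 0.82 (edgeR adjusted p = 0.630, 95% interval -0.45 to 2.10), and it was -0.04 without neonatal replicate 4. Once the length and GC trends were removed, it was 0.51 without that library (edgeR adjusted p = 0.385). Gins3, another GINS subunit, was at 30.1, 29.95 and 42.1 CPM in the adult libraries and at 40.7, 27.6 and 24.9 CPM in the neonatal ones, with the groups overlapping. Cdc45, which joins MCM and GINS in the active helicase, and the initiation factor Mcm10 averaged 137 ± 41.5 and 72.0 ± 25.1 CPM over the adult libraries and 124 ± 50.9 and 66.8 ± 34.7 CPM over the neonatal ones (SD, n = 3 each).

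Among the replicative polymerases, Pold1 and Pold2 had the largest log2 fold changes and neither passed the test. Pold1 (chromosome 7, 44532744 to 44548815), the catalytic subunit of the lagging-strand polymerase delta, was at 102, 106 and 180 CPM in the adult libraries and at 34.97, 271 and 242 CPM in the neonatal ones. Neonatal replicates 7 and 8 were the 2 highest libraries and neonatal replicate 4 was the lowest. Its log2 fold change was 0.50 (95% interval -1.05 to 2.05) on 6 libraries and 0.998 ± 0.28 (SE) without neonatal replicate 4 (edgeR adjusted p = 0.0774, range over 23 alternatives 0.0136 to 0.994), and -0.02 in those 5 libraries after removal of the length and GC trends. Pold2 (chromosome 11, 5872180 to 5878256), an accessory subunit, was at 51.5, 53.1 and 104 CPM in the adult libraries and at 95.9, 133 and 113 CPM in the neonatal ones. Only adult replicate 4 overlapped the neonatal range (log2 fold change 0.71 ± 0.37, SE, edgeR adjusted p = 0.504). Pole2, an accessory subunit of polymerase epsilon, averaged 55.9 ± 19.97 CPM over the adult and 58.2 ± 36.6 CPM over the neonatal libraries, and the catalytic Pole averaged 36.8 ± 14.5 and 39.9 ± 20.7 CPM (SD, n = 3 each).

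Polymerase alpha and primase, which make the primers, showed no common direction. Pola1, the catalytic subunit (chromosome X, 93304766 to 93632155), was at 34.4, 86.7 and 104.2 CPM in the adult libraries and at 78.3, 44.4 and 42.1 CPM in the neonatal ones. Pola2, its regulatory subunit, was at 83.6, 59.9 and 79.1 CPM in the adult libraries and at 76.8, 111 and 93.4 CPM in the neonatal ones. Both overlapped between the groups, with log2 fold changes of -0.46 and 0.34 (edgeR adjusted p = 0.783 and 0.728). Per kilobase Pola1 was the lowest of the 4 and Prim1 the highest in every library.

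Rfc1, the large subunit of the clamp loader (chromosome 5, 65261852 to 65335639), was the only member whose groups did not overlap on 6 libraries. It was at 109, 124 and 156 CPM in the adult libraries and at 95.6, 82.6 and 77.8 CPM in the neonatal ones. All 3 neonatal values lay below all 3 adult values, with means of 130 ± 24.0 and 85.3 ± 9.25 CPM (SD, n = 3 each). The log2 fold change was -0.61 ± 0.28 (SE, 95% interval -1.26 to 0.05), and it did not pass the test (edgeR adjusted p = 0.457, range over 23 alternatives 0.0249 to 0.951). The direction was negative under all 23 alternatives, which reuse the same libraries. With the length and GC trends removed, the value was -0.18 on 6 libraries (edgeR adjusted p = 0.842). It was -0.51 without neonatal replicate 4 (edgeR adjusted p = 0.243).

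Pcna and Rfc2 were highest in neonatal replicate 4. Pcna (chromosome 2, 132249286 to 132253180), the sliding clamp, was at 304, 313 and 455 CPM in the adult libraries and at 696, 283 and 304 CPM in the neonatal ones. Rfc2, a small clamp loader subunit, was at 137, 188 and 251 CPM in the adult libraries and at 318, 203 and 182 CPM in the neonatal ones. In both genes the other 2 neonatal libraries lay in or just under the adult range. The log2 fold change of Pcna was 0.26 (95% interval -0.73 to 1.24) and turned to -0.27 without neonatal replicate 4, and that of Rfc2 was 0.29 and 0.01. Once the length and GC trends were removed, the values without that library were 0.34 for Pcna (edgeR adjusted p = 0.513) and 0.14 for Rfc2.

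The 3 RPA genes had positive log2 fold changes on 6 libraries, 0.24 to 0.42, none called, and Rpa3 turned to -0.62 without neonatal replicate 4. Rpa3 was at 0.76 without that library once the length and GC trends were removed (edgeR adjusted p = 0.177). Rpa1, the large subunit that coats single-stranded DNA, was at 134, 146 and 199.7 CPM in the adult libraries and at 132, 206 and 227 CPM in the neonatal ones. Rpa2, the subunit phosphorylated under replication stress, was at 141, 95.5 and 165 CPM in the adult libraries and at 247, 131 and 160 CPM in the neonatal ones. Neonatal replicate 4 was the lowest of all libraries for Rpa1 and the highest for Rpa2. Rpa3, the small subunit, averaged 68.8 ± 12.7 and 89.0 ± 77.4 CPM (SD, n = 3 each).

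Genes that finish Okazaki fragments overlapped between the groups. Fen1, the flap nuclease, was at 166, 193 and 284 CPM in the adult libraries and at 289, 245 and 257 CPM in the neonatal ones. Lig1, DNA ligase I, was at 80.1, 100.3 and 173 CPM in the adult libraries and at 61.0, 141 and 190.2 CPM in the neonatal ones. Their log2 fold changes were 0.30 (95% interval -0.42 to 1.02) and 0.15 (95% interval -0.96 to 1.27).

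Of the deoxynucleotide supply genes, Rrm1 and Rrm2 were among the members with the highest CPM. Per kilobase of exon Tyms was the lowest of the 4 in every library. Rrm1, the large subunit of ribonucleotide reductase, was at 533.1, 532.9 and 793 CPM in the adult libraries and at 617, 436 and 490.0 CPM in the neonatal ones. Rrm2 (chromosome 12, 24708254 to 24714146), its small and S-phase-regulated subunit, was at 264, 338 and 541 CPM in the adult libraries and at 344, 326 and 356 CPM in the neonatal ones. The neonatal libraries were close to each other for Rrm2, with a mean of 342 ± 14.9 CPM against 381 ± 144 CPM in the adult libraries (SD, n = 3 each). Tk1, thymidine kinase, was at 163, 149 and 234 CPM in the adult libraries and at 360.2, 145 and 176 CPM in the neonatal ones. Tyms, thymidylate synthase, was at 183, 170 and 266 CPM in the adult libraries and at 297, 108 and 112 CPM in the neonatal ones. Of the 4 genes 1 was positive and 3 negative, with log2 fold changes of -0.27 to 0.32. Without neonatal replicate 4 all 4 were negative, -0.89 (Tyms) to -0.15 (Rrm2), with Tk1 at -0.17, and none was called by edgeR. After removal of the length and GC trends in those libraries, they ran from -0.79 (Tyms) to 0.09 (Rrm2).

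**Figure D3:**
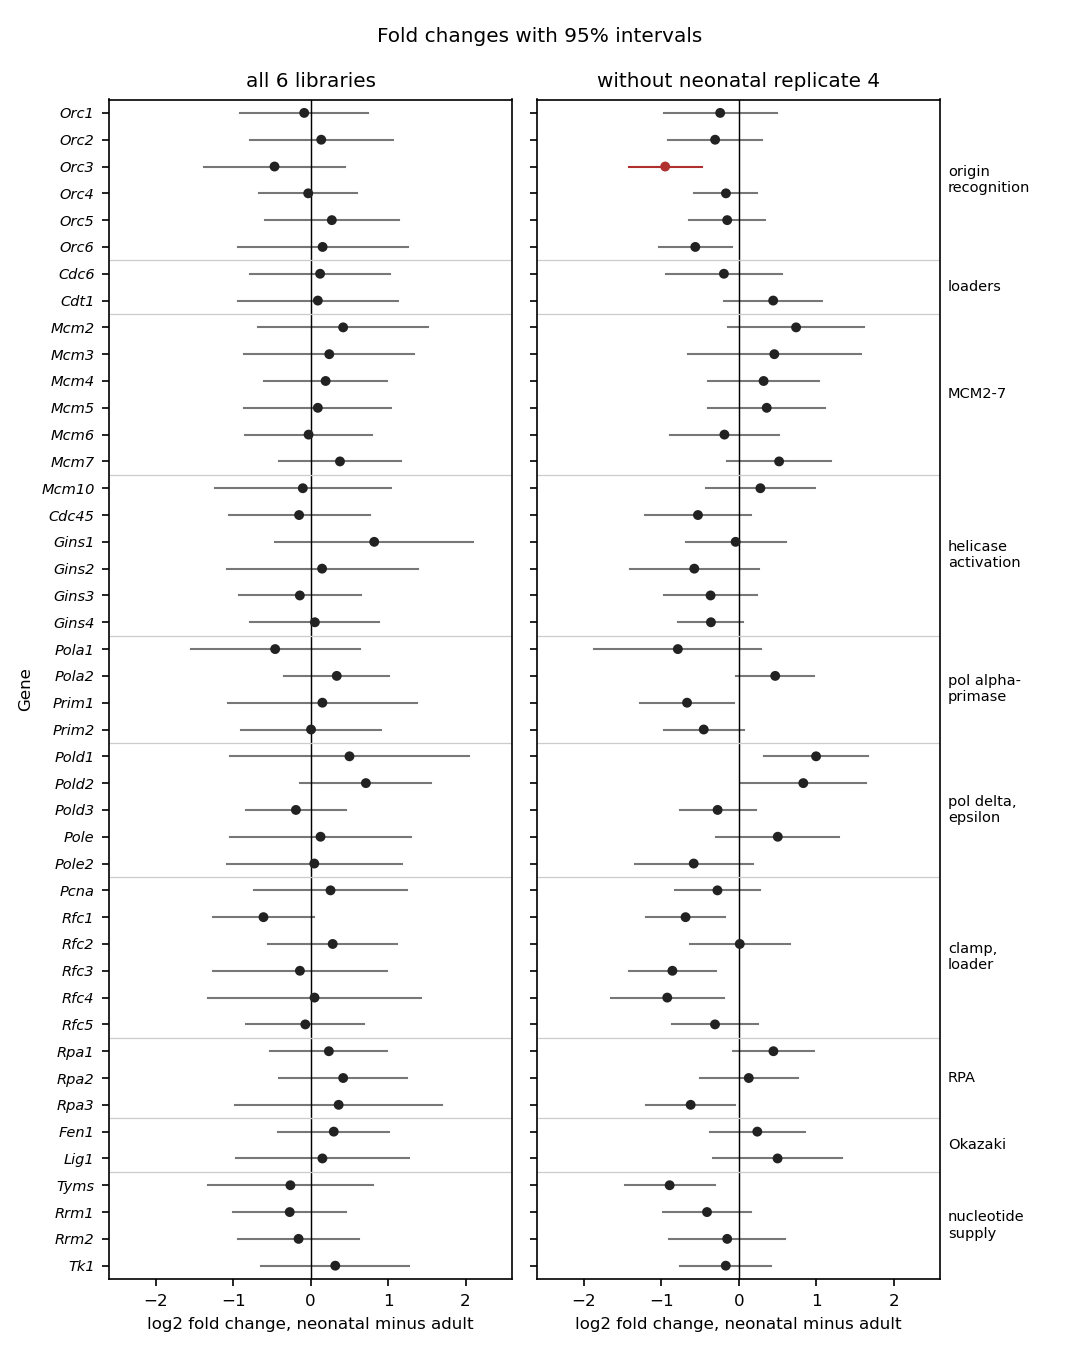
Log2 fold change, neonatal minus adult, of each replication gene (point) with its 95% interval (line), from all 6 libraries on the left and without neonatal replicate 4 on the right. Every interval on the left crosses 0, and Orc3 on the right, in red at -0.95, is the 1 gene with an adjusted p below 0.05.

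Leaving out neonatal replicate 4 changed the balance of signs among the members. In 5 libraries 16 members were positive and 28 negative, with a median of -0.19 against -0.05 over all genes, and 10 had an unadjusted p below 0.05 (22.7% of members, against 29.5% of all genes). Once the length and GC trends were removed in those 5 libraries, 19 were positive and 25 negative. Their median was then -0.09, against 0.02 over all genes. Neonatal replicates 7 and 8 lay above all adult libraries for 6 members, Cdt1, Mcm2, Pola2, Pold1, Pold2 and Rpa1, and below them for 15, among them Orc3, Orc6, Prim1, Pcna, Rfc1, Tyms and Rrm1. As shares these were 13.6% and 34.1% of the members, against 25.0% and 25.6% of all genes. DESeq2 on the same 5 libraries called Orc3, Rfc1, Rfc3, Rfc4 and Tyms lower and Pold1 higher, 6 of 44 (13.6%), where it called 24.2% of all genes. Of these Rfc3 was at 92.7, 71.9 and 103 CPM in the adult libraries and at 147, 54.9 and 42.9 CPM in the neonatal ones. Rfc4, also a small clamp loader subunit, was at 77.8, 99.5 and 150.4 CPM and at 227, 61.1 and 53.3 CPM. Both had neonatal replicate 4 above and neonatal replicates 7 and 8 below all adult libraries. Leaving out adult replicate 4 instead made 37 of 44 members positive, with a median of 0.36 against 0.07 over all genes. In that fit edgeR called 0 members (1 at an unadjusted p below 0.05) and 0.0219% of all genes.

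The members' differences went with the GC content of their transcripts. Between neonatal replicates 7 and 8 and the adult libraries, the log2 difference had a Pearson correlation of 0.683 and a Spearman correlation of 0.682 with GC content over the 44 genes, which share the same libraries and are not independent. Of the 22 members at or below the median GC content of 47.6%, 2 were positive, with a median difference of -0.42. Of the 22 members above it 14 were positive, with a median of 0.29. Over 13084 tested genes the same correlation was 0.378 (Spearman 0.460), so the relation was present outside the replication genes as well. Neonatal replicate 4 differed from neonatal replicates 7 and 8 along both properties, with Pearson correlations over the members of -0.607 with GC content and -0.533 with log2 exon length, and of -0.414 and -0.385 over all genes. Short members such as Rpa3 (638 exon bases) and Gins1 (1159) were high in neonatal replicate 4, and Pold1 (3424) and Pole (7129) were low. Long members were not all low: Orc3 (6313) was at 2.24 times, Tyms (3808) at 2.69 times and Pola1 (5347) at 1.81 times the mean of neonatal replicates 7 and 8. Of the 22 longer members 12 were higher in neonatal replicate 4, and of the 22 shorter ones 19. In adult replicate 4 against adult replicate 1 the correlation with GC content was 0.317 over the members and -0.02 over all genes. With the length and GC trends removed, 0 of 44 members were called on 6 libraries, beside 0.0994% of all genes, and 0 of 44 on the 5 without neonatal replicate 4, beside 0.0513%. So few calls over all genes leave nothing to read from the members' 0.

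**Figure D4:**
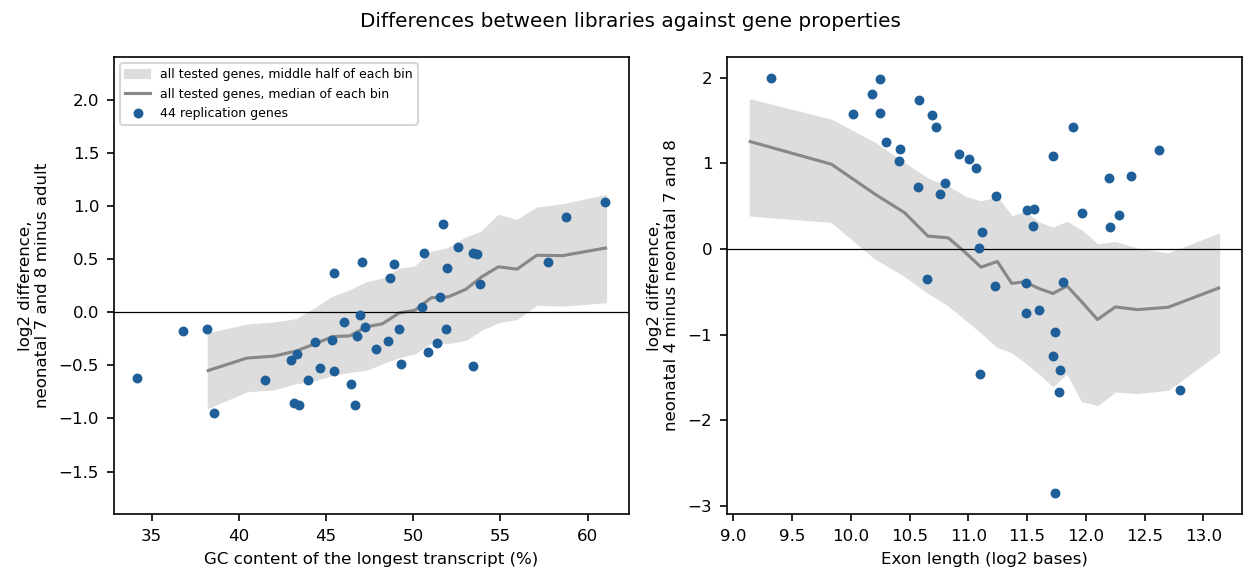
Left, log2 difference between neonatal replicates 7 and 8 and the adult libraries against the GC content of a gene's longest transcript. Right, log2 difference between neonatal replicate 4 and neonatal replicates 7 and 8 against exon length on a log2 axis. Blue points are the 44 replication genes and the grey line and band give the median and middle 50% of all tested genes in 20 bins; the members rise with GC content on the left, and on the right most of the short members lie above 0.

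Other genes of the S-phase programme and the 16 mitosis genes were taken from 7 lists with 110 genes in the file. With edgeR on 6 libraries 0 of the 110 were called, beside 0.0527% of all genes. At an unadjusted p below 0.05 there were 5, of which 2 were mitosis genes, whereas 11.9% of all genes passed. DESeq2 called 2 of the 110, beside 5.68% of all genes. Of the 28 other replication factors 13 were positive and 15 negative (median -0.06). The smallest p belonged to Atad5, which unloads PCNA, at 105, 94.0 and 107 CPM in the adult libraries and 68.4, 56.4 and 48.6 CPM in the neonatal ones (log2 fold change -0.82 ± 0.28, SE, edgeR adjusted p = 0.301, range over 23 alternatives 2.94e-05 to 0.805). The groups did not overlap for Atad5, and without neonatal replicate 4 it was lower (edgeR adjusted p = 0.0434), though not with the length and GC trends removed as well (-0.36, edgeR adjusted p = 0.361). Of 10 replication-coupled chromatin genes 8 were positive (median 0.23), with Chaf1b, a subunit of the histone loader CAF-1, at 64.3, 57.7 and 81.5 CPM in the adult libraries and 95.6, 83.5 and 84.0 CPM in the neonatal ones (edgeR adjusted p = 0.679). Of 20 other nucleotide supply genes 16 were positive (median 0.23), and 8 without neonatal replicate 4 (median -0.20). Impdh1, an enzyme of guanine nucleotide synthesis, was at 22.1, 20.7 and 11.8 CPM in the adult libraries and at 24.5, 65.2 and 119 CPM in the neonatal ones. All neonatal values exceeded all adult values for it (log2 fold change 1.94 ± 0.58, SE, edgeR adjusted p = 0.233), and it was higher without neonatal replicate 4 (edgeR adjusted p = 0.0361, range over 23 alternatives 8.32e-07 to 0.723). With the length and GC trends removed as well, Impdh1 was at 1.48 (edgeR adjusted p = 0.0992).

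Regulators of S phase gave 0 edgeR calls on 6 libraries as well, beside 0.0527% of all genes. In the E2F and RB family 4 of 13 were positive (median -0.13), or 7 of 13 without neonatal replicate 4 (median 0.01), and Tfdp2, a partner of E2F factors, was at 65.7, 45.95 and 55.9 CPM in the adult libraries and 39.2, 37.0 and 48.8 CPM in the neonatal ones, with overlap (edgeR adjusted p = 0.653). Among 12 S-phase kinase, cyclin and degradation genes 5 were positive (median -0.10). Ccne1, a cyclin that starts S phase, was at 29.0, 29.1 and 38.2 CPM in the adult libraries and at 49.6, 45.5 and 48.9 CPM in the neonatal ones, without overlap (log2 fold change 0.58 ± 0.29, SE, edgeR adjusted p = 0.491). Ccne2 on the same list went the other way, at 30.3, 48.4 and 47.5 CPM and at 43.9, 20.9 and 19.4 CPM, with overlap (log2 fold change -0.60, edgeR adjusted p = 0.652). Without neonatal replicate 4 Ccne2 was at -1.05 and Ccne1 at 0.57 (edgeR adjusted p = 0.0701 and 0.149). Of 11 replication checkpoint genes 5 were positive (median -0.09), and Hus1, a subunit of the checkpoint clamp, was at 22.2, 24.96 and 30.6 CPM in the adult libraries and 22.1, 16.2 and 10.5 CPM in the neonatal ones, with the highest neonatal value just under the lowest adult one (edgeR adjusted p = 0.544). Mki67, the proliferation marker and 1 of the 16 mitosis genes, was at 277, 333 and 299 CPM in the adult libraries and at 142, 179 and 159 CPM in the neonatal ones. Its groups did not overlap, the log2 fold change was -0.92 ± 0.27 (SE, edgeR adjusted p = 0.233), and without neonatal replicate 4 it was lower (edgeR adjusted p = 0.0487, range over 23 alternatives 0.000153 to 0.855). With the length and GC trends removed as well, Mki67 was at -0.34 (edgeR adjusted p = 0.315). The mitosis genes as a list had 11 of 16 positive with a median of 0.23. The summed replication members stood at 1.47, 1.66 and 2.52 times the summed mitosis genes in adult replicates 1, 2 and 4 and at 2.28, 1.98 and 1.64 times in neonatal replicates 4, 7 and 8, and the groups overlapped in this ratio.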

How the data were processed

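RNA-seq of 3 adult and 3 neonatal LIC libraries was used. The authors deposited whole-number counts of reads for each gene; featureCounts 1.5.1 was run with a UCSC annotation of mm10 and no strand option, per the file headers. Other tools named in the submitters' processing notes are TopHat, Bowtie, Trimmomatic and DESeq2. Per the labels' protocols, the RNA was polyA-selected and read single-end with the NEBNext Ultra kit, which does not mark strand.

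Counts were tested with edgeR 4.0.16 in R 4.3.3 (filterByExpr with a minimum count of 10, TMM, robust quasi-likelihood fit, Benjamini-Hochberg adjustment over all 13272 genes kept, threshold 0.05). The SE is the absolute log2 fold change over the square root of F, and the 95% interval uses the test's total degrees of freedom. DESeq2 1.42.0 and limma 3.58.1 served as alternatives, beside other scalings, filters, thinning to equal depth and leaving out each library. Exon length came from the file, GC content from GENCODE M21 (98.6% of genes kept), and log2 differences between libraries used CPM plus 0.5. The fits were tested on simulated data.

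Members and lists were chosen with earlier results of these data known. Values in every library were given for Mcm2 to Mcm7, Pcna and Rrm2, for members called by edgeR's quasi-likelihood test with or without neonatal replicate 4, for the 2 members per role with the smallest p, and for the gene with the smallest p of each other list. Members given only as means, the ratios named at the extremes of a range, Rfc3, Rfc4, Tyms, Orc1 and Ccne2 were chosen after their values were seen. Of 157 other listed genes, markers included, 5 were matched through synonyms and 2 were not matched.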

Additional observations from a re-analysis of the deposited data

How the results depend on the processing

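Of 23 alternatives, 17 were planned and 6 were added after the data were seen. Over all genes 7 passed the main test, against 785 with DESeq2, 1056 with limma voom and library quality weights, 592 with edgeR's likelihood ratio test, 13 with the length and GC trends removed, and 1 to 828 with 1 library left out. With neonatal replicate 4 left out, 3448 passed with DESeq2, 928 with limma voom, 834 with RLE scaling and 845 on library totals, but 7 with the length and GC trends removed. The replication members went from 0 called to 0 to 1 with 1 library left out, and, without neonatal replicate 4, to 6 with DESeq2 and 1 each with limma voom, RLE scaling and library totals, in each case Orc3. The other lists, with 110 genes, went from 0 to 2 with DESeq2, 4 with quality weights, 1 with the likelihood ratio test and 0 to 3 with 1 library left out. The shares of all genes called in those fits were 5.68%, 7.96%, 4.46% and 0.00733% to 5.98%. Without neonatal replicate 4 the other lists had 22 called with DESeq2, 3 with limma voom, 3 with RLE scaling and 2 on library totals. All genes were called at shares of 24.2%, 6.7%, 6.02% and 6.1% in these 4 fits. The cause of these differences was not tested. By role, the count of positive members moved by at most 1 gene under RLE, upper quartile and library totals. The members' median stayed positive under TMM, RLE, upper quartile and library totals (0.03 to 0.16), was -0.06 with limma voom and -0.12 with quality weights, and was -0.19 without neonatal replicate 4. No paired analysis was possible because the groups share only replicate number 4. The intervals of the members' log2 fold changes reached a median of 0.91 to either side on 6 libraries and 0.63 without neonatal replicate 4. Over all genes tested these medians were 1.14 and 0.82. Calls over all genes did not always rise without that library, as the 13 and 7 with the trends removed show. The part of neonatal replicate 4 in the precision was not tested, and 3 libraries a group limit any such comparison.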
